A study of Homo sapiens with 4 samples.

Results

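The comparison described here is the last step of a long culture of H9 (WA09), a human embryonic stem cell line in wide use: the array of passage group P4 (passages in the 300s) set against the array of passage group P3 (the 200s). These are 2 of the 4 arrays of the study, the other two being P1 (passages in the 40s) and P2 (the 100s). All 4 groups were this 1 line, differing in the labels by passage range, with no treatment named. Total RNA of each was hybridised to 1 Illumina bead array, so differences could not be checked against replicates and p-values are absent. Levels are the linear probe intensities as deposited. A gene was called detected on an array when its chosen probe, the one brightest on average, reached that array's 60th percentile over all 47323 probes, 38.4 intensity units in P3 and 38.4 in P4. Values under this limit were set to it before the log2 difference, P4 minus P3, was taken. Of 19951 named genes, 11781 were detected on at least 1 of the 2 arrays and 11045 on both. A fold is written "at least" where the dimmer array was under the limit, and a log2 difference of that kind is called a bound, since its size is the least it can be. The number of arrays limits the precision.

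The labelled cell type was checked against marker genes. POU5F1, NANOG, SOX2, LIN28A, DPPA4 and L1TD1, which mark undifferentiated pluripotent cells, were detected on all 4 arrays, and their summed intensity was 47255 in P3 and 50774 in P4. Of the markers of other lineages, those under the limit on both arrays included LUM, DCN and POSTN of fibroblasts, TBXT and MIXL1 of mesoderm, SOX17 and GATA4 of endoderm, PAX6 and SOX1 of neural cells and GATA3 and CGA of trophoblast. Others were detected. In P3 and P4, KDR of mesoderm read 164 and 193, AFP of endoderm 111 and 86.7 and GCM1 of trophoblast 55.7 and 49.65. CD34 of blood read 85.8 and 53.9 and DAZL of germ cells 85.4 and 108, while FOXA2 of endoderm was detected in P3 alone, at 92.7. The fibroblast marker list had 2 of 6 members detected, the collagens COL1A1 and COL1A2, and its summed intensity was 2228 in P3 and 2692 in P4. The neural marker list summed to 935 in P3 and 412 in P4, with 3 and 2 of 5 members detected. In RNA from a whole culture, fewer cells of a type and less RNA per cell cannot be told apart.

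Metallothioneins are small cysteine-rich proteins that bind zinc, copper and cadmium; the zinc sensor MTF1 switches their genes on through metal response elements, short motifs repeated in their promoters. The tumour suppressor p53 is a transcription factor that responds to DNA damage and other stress by inducing genes of cell cycle arrest, repair and apoptosis, and pluripotent cells are known to be sensitive to it. Interferon-stimulated genes encode antiviral proteins and are switched on through the interferon-stimulated response element, although pluripotent cells are known for a weak interferon response.

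The promoters of genes among the furthest from equality are shown first, since the motifs just named stand in them. The sequences, from RefSeq on GRCh38.p14, cover the 250 bases before the annotated start of each gene, read on the gene's strand. For the metallothionein genes MT2A at chr16:56608334-56608583 (+ strand), MT1X at chr16:56682220-56682469 (+ strand) and MT1H at chr16:56669564-56669813 (+ strand), capitals mark matches to TGCACNC or TGCGCNC on either strand, which are forms of the metal response element.
MT2A: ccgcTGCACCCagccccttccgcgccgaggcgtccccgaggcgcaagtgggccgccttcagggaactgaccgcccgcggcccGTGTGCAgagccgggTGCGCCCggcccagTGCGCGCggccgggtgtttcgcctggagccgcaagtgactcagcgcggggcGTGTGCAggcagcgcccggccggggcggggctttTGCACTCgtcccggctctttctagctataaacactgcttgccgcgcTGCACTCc
MT1X: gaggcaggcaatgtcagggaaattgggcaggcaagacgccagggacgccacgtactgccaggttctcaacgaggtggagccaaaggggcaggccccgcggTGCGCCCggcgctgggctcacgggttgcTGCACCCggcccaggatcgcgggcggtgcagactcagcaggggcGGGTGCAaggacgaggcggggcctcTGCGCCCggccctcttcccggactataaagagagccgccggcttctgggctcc
MT1H: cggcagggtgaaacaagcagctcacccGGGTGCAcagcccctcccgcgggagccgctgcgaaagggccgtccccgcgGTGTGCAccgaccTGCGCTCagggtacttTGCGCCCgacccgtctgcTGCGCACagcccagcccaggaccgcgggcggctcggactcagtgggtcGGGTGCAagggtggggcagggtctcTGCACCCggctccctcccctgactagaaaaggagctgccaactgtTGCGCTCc
MT1H held 8 such stretches, MT2A 7 and MT1X 4. Among the 9435 detected genes with an entry in the promoter table, 33% held at least 1 stretch and 8.09% at least 2 in the same window. MT1G, MT1E and MT1F are named without a sequence.

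For IFIT1 at chr10:89392373-89392622 (+ strand), IFIT3 at chr10:89327747-89327996 (+ strand) and HERC5 at chr4:88456869-88457118 (+ strand), which are interferon-induced, capitals mark the core of the interferon-stimulated response element (GAAA, any 2 bases, GAAA) on either strand, with overlapping matches joined.
IFIT1: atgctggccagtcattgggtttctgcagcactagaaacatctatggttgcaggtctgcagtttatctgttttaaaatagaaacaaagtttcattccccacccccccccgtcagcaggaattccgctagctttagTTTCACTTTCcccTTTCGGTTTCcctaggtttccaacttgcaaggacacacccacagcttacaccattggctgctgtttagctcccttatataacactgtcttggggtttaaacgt
IFIT3: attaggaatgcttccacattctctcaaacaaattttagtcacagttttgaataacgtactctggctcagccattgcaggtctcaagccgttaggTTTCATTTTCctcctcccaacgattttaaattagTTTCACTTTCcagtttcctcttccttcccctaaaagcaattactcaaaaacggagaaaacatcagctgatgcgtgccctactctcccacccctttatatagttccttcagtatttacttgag
HERC5: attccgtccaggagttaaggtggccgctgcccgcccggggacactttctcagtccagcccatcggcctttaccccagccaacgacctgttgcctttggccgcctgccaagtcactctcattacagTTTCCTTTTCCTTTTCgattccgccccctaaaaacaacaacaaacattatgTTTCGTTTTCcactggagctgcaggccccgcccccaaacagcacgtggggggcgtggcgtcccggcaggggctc
Each of the 3 promoters held 2 such stretches, all matched on the strand opposite to the one printed. Among all detected genes with a promoter entry, 2.3% held at least 1 and 0.127% at least 2. A match describes these letters and does not show that a factor binds there.

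Across all detected genes the P4 array differed little from the P3 array. The median log2 difference was -0.0037, with 5820 genes (49.4%) above 0 and 5961 below. Within 1.5-fold lay 92.2% of the genes, and the central 90% lay between -0.48 and 0.55. The genes at least 2-fold higher in P4 numbered 158, which is 1.34% of those detected, and 89 were at least 2-fold lower, which is 0.755%. The larger differences were mostly upward: 35 genes were at least 4-fold higher against 6 lower, 20 at least 8-fold higher against 2 lower, and 10 at least 16-fold higher against 0 lower. Of the genes at least 2-fold higher, 53 were under the limit in P3, and of those lower, 18 were under it in P4. For 131 of the higher genes P4 was the highest of the 4 arrays, a count favoured by choosing genes with P4 above P3. The P4 and P3 arrays were also the most alike of the 6 possible pairs by the robust spread of the log2 difference, 0.23 against 0.30 to 0.37 in the other pairs.

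**Figure D1:**
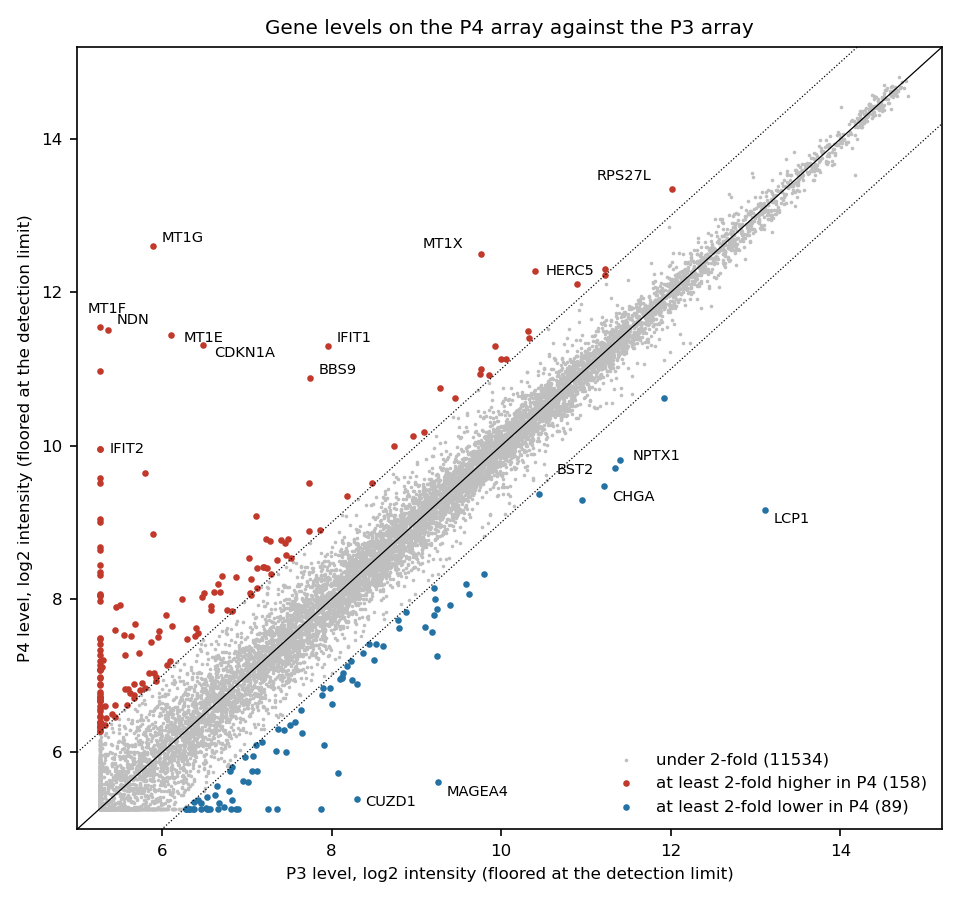
Each point is 1 of the 11781 detected genes, with its level in P3 on the horizontal axis and in P4 on the vertical axis, both as log2 intensity floored at the detection limit. The solid line is equality and the dotted lines 2-fold; MT1G and NDN lie far above, LCP1 far below, and points on the left edge were under the limit in P3.

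Metallothioneins had the highest median difference of the 64 lists with a median, which were chosen with earlier results of these data known. Of 10 members on the array, 7 were detected and all 7 were above 0, with a median log2 difference of 5.33. At least 2-fold higher in P4 were 6 of 7, against 1.34% of all detected genes. MT1F, MT1H and MT1M entered the list through their P4 level alone. Among members detected on both arrays, 4 of 4 were at least 2-fold higher, with a median of 4.58. MT1G read 5109 (P1), 379.6 (P2), 59.5 (P3) and 6201 (P4), 104-fold higher in P4 than in P3. MT1E read 2404 (P1), 137 (P2), 69.1 (P3) and 2777 (P4), 40.2-fold higher. MT1F read 2235 (P1), 424 (P2) and 2992 (P4) and was under the limit in P3, at least 77.9-fold higher. P1 and P4 were the high arrays for each of these genes, P2 was intermediate, and P3 was the lowest of the 4. MT1H read 2604 (P1), 112 (P2) and 2013 (P4) and was under the limit in P3, at least 52.4-fold higher. MT2A, the most widely expressed member in human tissues, read 769.7 (P1), 116 (P2), 55.8 (P3) and 799 (P4), 14.3-fold higher. MT1X read 3613 (P1), 1340.5 (P2), 865 (P3) and 5795 (P4) and was 6.7-fold higher, so that it stayed well above the limit in P3. MT1M was measured in P1 and P4 at 78.7 and 75.6 and was under the limit in P2 and P3, so its difference was 0.98 or more. As near-identical genes the metallothioneins may share probe signal, and a second detected MT1H probe gave a log2 difference of 0.30 (a bound).

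The machinery that moves and senses zinc did not share that difference. Of 18 detected zinc transporter and sensor genes, 1 was at least 2-fold higher and 0 lower, with a median of 0.11. The exception was SLC39A4, a zinc importer, at 126 in P4, at least 3.28-fold higher, and under the limit on the other 3 arrays. SLC30A1, the zinc exporter of the plasma membrane that MTF1 also induces, read 223 (P1), 163 (P2), 149.6 (P3) and 207 (P4), a difference of 0.47, and its other detected probe gave 0.48. Among other stress classes, the medians were -0.04 for heat shock genes, 0.10 for the oxidative stress response and 0.12 for endoplasmic reticulum stress and ATF4 targets, with no member at least 2-fold higher in any of them and 1 lower, the small heat shock gene CRYAB. STC2, a secreted glycoprotein induced by endoplasmic reticulum stress, was the furthest of the last list at 0.90.

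Most p53 targets on the list, which was chosen with earlier results of these data known, were higher in P4. Of 25 detected targets, 11 were at least 2-fold higher, against 1.34% of all detected genes, and 0 lower. Above 0 were 22, against 49.4% of all detected genes, and the median log2 difference was 0.92. PHLDA3, GDF15 and SPATA18 entered the list through their P4 level alone. Among targets detected on both arrays, 8 of 22 were at least 2-fold higher, with a median of 0.80. CDKN1A, which encodes the cell cycle inhibitor p21, read 1566 (P1), 489 (P2), 89.7 (P3) and 2546 (P4), 28.4-fold higher. PHLDA3, an inhibitor of AKT signalling, read 381 (P1), 143 (P2) and 411 (P4) and was under the limit in P3, at least 10.7-fold higher. GDF15, a secreted stress cytokine, read 199 (P1) and 265 (P4) and was under the limit in P2 and P3, at least 6.89-fold higher. For CDKN1A and PHLDA3 the order of the arrays was P4, P1, P2 and P3 from high to low.

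DDB2, SESN1 and RRM2B had the same order of arrays with smaller folds. DDB2, which recognises ultraviolet damage, read 188 (P1), 111 (P2), 43.7 (P3) and 193 (P4), 4.42-fold higher. SESN1, a stress-induced inhibitor of growth signalling, read 514 (P1), 353 (P2), 213 (P3) and 732 (P4), 3.44-fold higher. RRM2B, the p53-induced ribonucleotide reductase subunit, read 366 (P1), 225 (P2), 155 (P3) and 434 (P4), 2.8-fold higher. In all 3 the P3 array was the lowest and P4 the highest. GADD45A, a growth arrest protein, read 143 in P3 and 286 in P4, just under the 2-fold line, and XPC, a sensor of nucleotide excision repair, read 776 in P3 and 1375 in P4, a difference of 0.82. DRAM1, a p53-induced modulator of autophagy outside the list, read 229 (P1), 154 (P2), 51.2 (P3) and 205 (P4), 4.01-fold higher.

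Among the apoptotic targets, BAX, a pore-forming protein of mitochondria, read 1728 (P1), 1901 (P2), 869 (P3) and 2041 (P4), 2.35-fold higher, and its other detected probe gave a log2 difference of 0.92 (a bound). TNFRSF10B, a death receptor for TRAIL, was 2.6-fold higher by its chosen probe, while the others gave 0.31 (a bound) and 0.32. AEN, a p53-induced nuclease, was 2.1-fold higher and SPATA18, a regulator of mitochondrial quality, at least 2.03-fold higher. RPS27L, a ribosomal protein relative induced by p53, was bright on all arrays, at 9105 (P1), 6432 (P2), 4140.3 (P3) and 10446 (P4), 2.52-fold higher. The list was not uniform, since PMAIP1, which encodes NOXA, stood at 0.03, TP53I3 at -0.22 and the translesion polymerase POLH at -0.33. ZMAT3, an RNA-binding p53 target, stood at -0.01 by its chosen probe and at 1.83 and 1.89 by others, so its probes disagree. The 9 detected regulators of the pathway had a median of -0.10 and none was 2-fold different: the kinases ATM and CHEK2 stood at -0.14 and -0.10, the p53 inhibitor MDM4 at -0.13 and the phosphatase PPM1D, itself a target, at 0.44.

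The medians of the apoptosis and repair lists were near equality, and the proapoptotic list shares BAX with the p53 targets. The 15 proapoptotic genes had a median of 0.07 with BAX as the sole member at least 2-fold higher, and the initiator caspase CASP9 was at -0.65. The 9 antiapoptotic genes had a median of -0.12, with 1 of them above 0, against 49.4% of all detected genes. That gene was BCL2L1, which encodes BCL-XL, at 2472 (P1), 2951 (P2), 4378 (P3) and 5831 (P4), a difference of 0.41. Of 22 DNA repair genes 1 was at least 2-fold different. It was MGMT, the enzyme that removes alkyl groups from guanine, which read 824 (P1), 252 (P2) and 764 (P4) and was under the limit in P3, at least 19.9-fold higher.

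**Figure D2:**
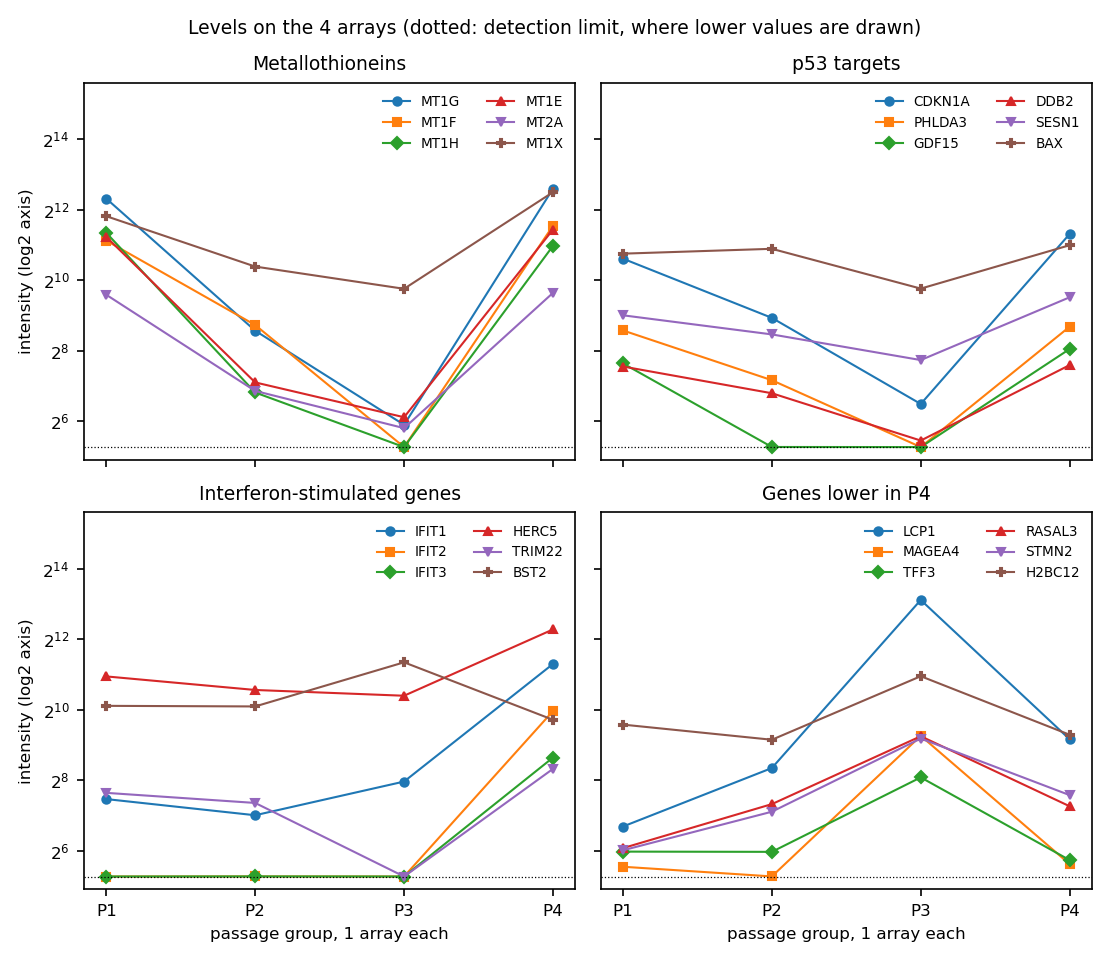
Levels of chosen genes on the 4 arrays, with passage group on the horizontal axis and intensity on a log2 vertical axis; values under the dotted detection limit are drawn on it. The plotted metallothioneins and p53 targets are at their lowest in P3 (GDF15 is under the limit in P2 as well), IFIT1, IFIT2 and IFIT3 are highest in P4, and the plotted genes lower in P4 are highest in P3.

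Interferon-stimulated genes were split. Of 29 detected members 10 were at least 2-fold higher and 1 lower, against 1.34% and 0.755% of all detected genes. The median log2 difference was 0.29, and among members detected on both arrays 4 of 19 were at least 2-fold higher. IFIT1, which binds viral RNA ends, read 176 (P1), 128 (P2), 248.9 (P3) and 2518 (P4), 10.1-fold higher. IFIT2 read 996 in P4 and was under the limit on the other 3 arrays, at least 25.9-fold higher. IFIT3 was likewise measured in P4 alone, at 399, at least 10.4-fold higher, and another of its probes gave a log2 difference of 2.45 (a bound). Unlike the metallothioneins, these neighbouring genes on chromosome 10 had low or undetected levels in P1, P2 and P3 alike.

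Other antiviral effectors were higher too. MX2, a GTPase that restricts virus entry to the nucleus, read 45.2 in P3 and 243 in P4, 5.38-fold higher. HERC5, the ligase that joins ISG15 to proteins, read 1971 (P1), 1509 (P2), 1347 (P3) and 4968 (P4), 3.69-fold higher. TRIM22 read 199 (P1), 163 (P2) and 319.6 (P4) and was under the limit in P3, at least 8.32-fold higher. Its P1 and P2 levels were nearer to P4 than to P3, which sets it apart from the IFIT genes; TRIM22 is also known as a p53 target. The RNA sensors IFIH1, which encodes MDA5, and DDX60 were higher too, IFIH1 by at least 3.06-fold and DDX60 by at least 3.5-fold. OAS2 was at least 2.19-fold higher and ISG20, a nuclease, 2.04-fold higher. ISG15, the ubiquitin-like modifier, read 967 (P1), 1067 (P2), 1506 (P3) and 2937 (P4) and lay just under 2-fold at 0.96.

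The opposite difference was seen in BST2, which encodes tetherin, a protein that holds virus particles at the cell surface. It read 1104 (P1), 1092 (P2), 2601 (P3) and 839.7 (P4), 3.1-fold lower, with P3 as the highest of the 4 arrays. IFITM1, IFITM2 and IFITM3, which block virus entry and are known to be high in pluripotent cells, stood at 0.09, 0.11 and 0.27, and the transcription factors IRF1, IRF7 and IRF9 at 0.12, -0.21 and 0.20. Of the 10 interferon-stimulated genes at least 2-fold higher, 6 had a promoter entry. All 6 held the element's core, 5 of them at least 2 stretches. Over the detected list, which includes these 6, 13 of 22 held it, and BST2 held 1 stretch. A link between the element and the difference was not tested. The 10 detected HLA class I presentation genes had a median of 0.05 and no 2-fold member. Their furthest members were B2M, the light chain of class I molecules, at -0.48 and the peptide transporter TAP1 at 0.40. NF-kappaB targets and cytokines had a median of 0.08 over 10 members with no 2-fold member, and CCL5, a chemokine gene outside that list, read 121 (P1), 152 (P2), 131 (P3) and 371 (P4), 2.84-fold higher.

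A further set of genes was measured on the P1, P2 and P4 arrays and missing or nearly missing from P3. NDN, an imprinted gene that encodes necdin, read 2487 (P1), 2702 (P2), 41.2 (P3) and 2915 (P4), 70.7-fold higher. PYCR1, which makes proline in mitochondria, read 841 (P1), 794 (P2) and 989.8 (P4) and was under the limit in P3, at least 25.8-fold higher, and another of its probes gave a log2 difference of 1.14 (a bound). HEPH, an iron oxidase, read 406 (P1), 488 (P2) and 513 (P4) and was under the limit in P3, at least 13.3-fold higher. In each of them P1, P2 and P4 were close to one another and P3 stood alone. COMMD8 was at least 8.53-fold higher and FAM174A at least 4.68-fold higher, also under the limit in P3 alone. PABPC4L, a poly(A)-binding protein relative, read 449 (P1), 225 (P2) and 527 (P4) and was under the limit in P3, at least 13.7-fold higher, with P2 below P1 and P4, and GNPDA2, a glucosamine phosphate deaminase, was at least 2.68-fold higher. ECHDC3, a mitochondrial hydratase-related gene, read 1022 (P1), 111 (P2) and 347 (P4) and was under the limit in P3, at least 9.03-fold higher, so that its P4 level was below that of P1. The other 11 detected genes of serine, glycine and proline synthesis stood between -0.18 (PRODH, which degrades proline) and 0.50 (MTHFD1L).

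Another set was measured in P4 and under or near the limit on all earlier arrays. The antisense transcript ZNF667-AS1 was detected in P4 alone at 733, at least 19.1-fold higher, and its neighbour ZNF667 at 251, at least 6.54-fold higher, with a bound of 1.12 by another probe. Without strand information on the probes, a gene and its antisense partner may share signal. PEG3, a paternally expressed imprinted gene, read 269 in P4, at least 6.99-fold higher, and the cholesterol hydroxylase CH25H 154, at least 4-fold higher. LINC01139, a long non-coding RNA, read 81.1 (P1), 88 (P2), 59.5 (P3) and 460.2 (P4), 7.74-fold higher. CEACAM1, an adhesion molecule, read 60.7 (P1), 65.7 (P2), 44 (P3) and 237 (P4), 5.39-fold higher. P4 was the highest array for all of these, while BBS9, a subunit of the ciliary BBSome, read 976 (P1), 291 (P2), 215 (P3) and 1893 (P4) and so was also high in P1; it was 8.79-fold higher. Its other detected probe gave a log2 difference of 1.08, a smaller difference in the same direction, and that of CEACAM1 gave 1.36. FAM89A and RIPOR2 were not of this kind. FAM89A read 143 (P1), 72.9 (P2), 46.8 (P3) and 185 (P4), 3.96-fold higher, with a bound of 0.26 by its other probe, and RIPOR2 read 1049 (P1), 572 (P2), 137 (P3) and 541 (P4), 3.94-fold higher, with P1 as its highest array.

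Of the 89 genes at least 2-fold lower in P4, P3 was the highest of the 4 arrays for 74. Choosing genes with P3 above P4 favours such a count. LCP1, which bundles actin and is typical of leukocytes, read 103 (P1), 325 (P2), 8869 (P3) and 572 (P4), 15.5-fold lower in P4 yet still above P1 and P2. MAGEA4, a cancer-testis antigen of the X chromosome, read 46.6 (P1), 612 (P3) and 49 (P4) and was under the limit in P2, 12.5-fold lower (another probe gave -1.76, a bound), and MAGEA6 was at least 3.06-fold lower; MAGEA genes are close copies, and cross-hybridisation between them was not tested. TFF3, a secreted trefoil peptide, read 62.7 (P1), 62.4 (P2), 270.2 (P3) and 53 (P4), 5.09-fold lower. RASAL3, a RAS GTPase-activating protein, read 67.2 (P1), 159.7 (P2), 607 (P3) and 153 (P4), 3.97-fold lower, with a bound of -1.17 by another probe. In these the P3 array was the high one. CUZD1 differed from that, reading 352 (P1), 560.5 (P2), 315 (P3) and 41.9 (P4), 7.53-fold lower, with P4 as the low array, as it was for RLN2, the hormone relaxin, which read 199 (P1), 184 (P2) and 235 (P3) and was under the limit in P4, at least 6.13-fold lower, with a bound of -0.58 by another probe. The small heat shock genes CRYAB and HSPB2, head-to-head neighbours on chromosome 11, stood together, CRYAB being at least 4.26-fold lower and HSPB2 at least 3.09-fold lower, and both had also been under the limit in P2.

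Of the 9 detected neural and ectoderm markers 4 were above 0, and their median was -0.03; STMN2 and MAP2 were at least 2-fold lower, and the progenitor markers SOX3, NES and CDH2 stood at 0.20, 0.16 and 0.07. The genes that follow are others of the 15 lowest, together with STMN2. CHGA, chromogranin A of secretory granules, read 2319 (P1), 706 (P2), 2377 (P3) and 709 (P4), 3.35-fold lower. NPTX1, neuronal pentraxin, read 624 (P1), 605 (P2), 2714 (P3) and 903 (P4), 3-fold lower, while its other detected probe gave a log2 difference of -0.37 (a bound). STMN2, a neuronal tubulin-binding protein, read 64.4 (P1), 138 (P2), 581 (P3) and 191 (P4), 3.05-fold lower, and its other detected probe gave -2.11. P3 was the highest array for all 3, although P1 was nearly as high for CHGA. FABP7, a fatty acid-binding protein of neural progenitors, was 2.92-fold lower, and SOX21, a neural transcription factor, read 732 (P1), 2356 (P2), 889.7 (P3) and 321 (P4), 2.77-fold lower, with its peak in P2. The remaining members of the 15 lowest were the calpain gene CAPN13 (3.51-fold lower), the histone gene H2BC12, RADX, which protects replication forks (2.79-fold), and the splicing regulator MBNL3 (2.78-fold, with other probes at -1.06 and -0.59, the latter a bound). Among the bounds, the muscle phosphoglycerate mutase PGAM2 was at least 3.98-fold lower, the adhesion receptor ADGRG1 at least 2.93-fold lower, the folate receptor FOLR1 at least 2.63-fold lower (another probe gave -0.03, a bound) and the apelin receptor APLNR at least 2.44-fold lower.

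Core pluripotency genes were level or slightly higher in P4. Of 29 detected members 25 were above 0, against 49.4% of all detected genes, and the median log2 difference was 0.20. At least 2-fold higher were 3, against 1.34% of all detected genes, and 0 were lower. With the floor at the 75th percentile 0 of 27 were at least 2-fold higher. POU5F1 read 4101 (P1), 4345 (P2), 5445 (P3) and 5466 (P4), a difference of 0.01, SOX2 stood at 0.06 and LIN28A at 0.08. NANOG read 1672 (P1), 1246 (P2), 1217 (P3) and 1625 (P4), a difference of 0.42, while its other detected probe gave -0.29 (a bound). The members at least 2-fold higher were UTF1, a chromatin factor of undifferentiated cells (90.4 in P3 and 271 in P4, 2.99-fold higher), the ligand gene NODAL (98 in P3 and 272 in P4, 2.78-fold higher) and DPPA2 (132 in P3 and 271 in P4, 2.05-fold higher). UTF1 and its neighbour VENTX, a homeobox gene, were higher together, VENTX by 2.32-fold. PRDM14, a repressor of differentiation genes, stood at 0.93, the neuropeptide GAL at 0.96, the growth factor FGF2 at 0.90 and the methyltransferase DNMT3B at 0.53, with its other probes at 0.11, 0.49 and 0.50.

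The 7 detected naive pluripotency genes had a median of 0.07 and differed among themselves. NR5A2 and KLF4 were 2.14-fold and 2.1-fold higher, SUSD2, a surface marker of naive cells, 2.1-fold lower, TFCP2L1 stood at 0.53 or more, KLF2 at -0.41 and TFAP2C and DPPA3 at 0.07 each. The median of the 10 germline and cancer-testis genes was -0.11, with MAGEA4 and MAGEA6 lower, and DAZL, a germ cell RNA-binding protein, at 0.34. Lineage markers were few. KDR and CDX4 were the detected mesoderm markers, at 0.24 and 0.14. The 3 detected endoderm markers were FOXA2, measured in P3 alone at 92.7 (at least 2.42-fold lower in P4), AFP at -0.36 and CER1 at 0.16 or more. The 5 detected trophoblast and amnion markers had a median of -0.04, with KRT8 highest at 0.37 and IGFBP3 lowest at -0.34.

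**Figure D3:**
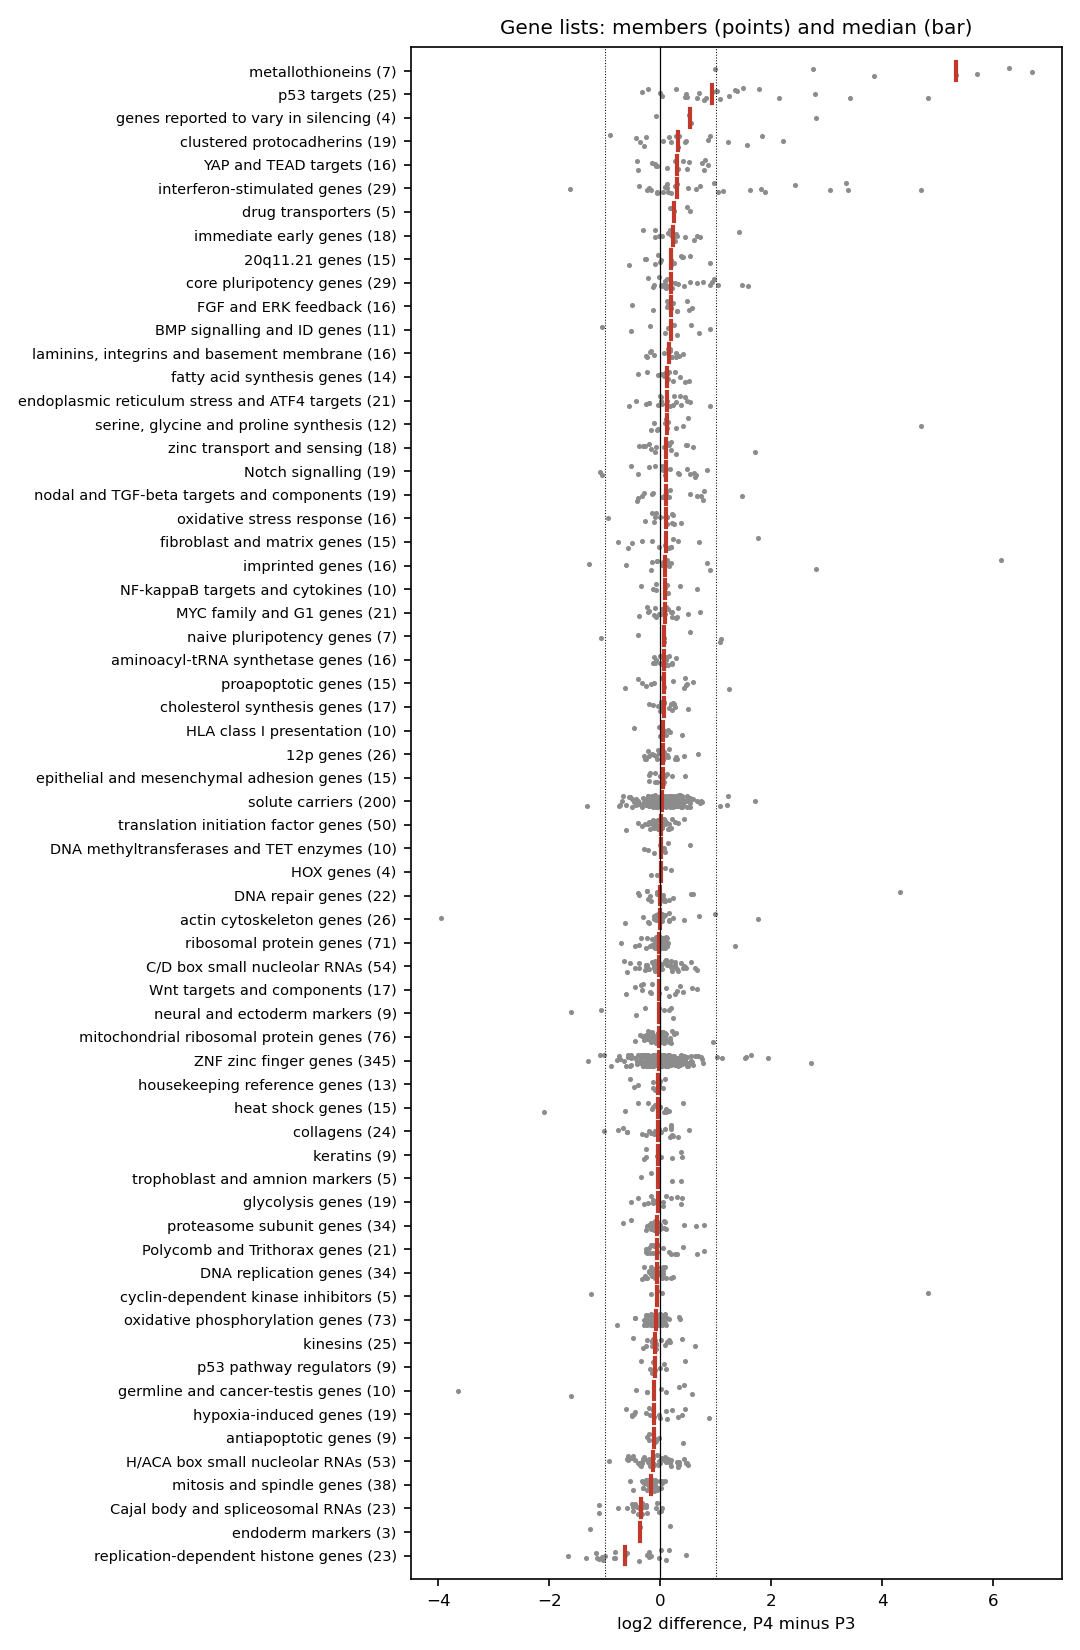
Each grey point is a detected member of a gene list and each red bar the list's median, with the log2 difference, P4 minus P3, on the horizontal axis and the number of detected members in brackets. Metallothioneins (median 5.33) and p53 targets (0.92) lie at the top and replication-dependent histone genes (-0.64) at the bottom, while most medians lie near 0. The lists were chosen with earlier results of these data known.

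Signalling classes differed by less. The nodal and TGF-beta list had a median of 0.10 over 19 members. Besides NODAL, its feedback inhibitors LEFTY2 and LEFTY1 stood at 0.76 and 0.65, the activin antagonist FST at 0.73 and the SMAD co-repressor SKIL at 0.79. In the BMP list, with a median of 0.19 over 11 members, the target ID1 read 1929.6 (P1), 1449 (P2), 1973 (P3) and 3682 (P4), a difference of 0.90, and its other probe gave 1.27. ID2 and ID3 stood at 0.08 and 0.14, the ligand BMP7 at 0.70, the inhibitor SMAD6 at 0.54, and the ligand BMP2 was at least 2.07-fold lower.

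The 17 detected Wnt genes had a median of -0.02 and no 2-fold member, with the feedback inhibitor AXIN2 highest at 0.65 and the receptor FZD2 lowest at -0.63. FGF and ERK feedback genes had a median of 0.19, and none was 2-fold different. Above 0 were 14 of 16, against 49.4% of all detected genes. FGFR3 stood at 0.56, the phosphatases DUSP14 and DUSP5 at 0.51 and 0.48 and the transcription factor ETV5 at -0.51. The median of the 18 immediate early genes was 0.23. FOSL1 was at least 2.65-fold higher, and MYC stood at 0.72 (its other probe gave 0.97), JUN at 0.67 and IER3 at 0.61, against FOS at -0.10 and KLF6 at -0.31.

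The 16 YAP and TEAD targets, none of them 2-fold different, had a median of 0.29. The secreted matricellular proteins CCN2 and CCN1 stood at 0.86 and 0.81, tissue factor F3 at 0.79 or more and the factor TEAD4 at 0.51. In the Notch list the ligand DLL1 and the target HEY1 were 2.08-fold and 2.12-fold lower, although another HEY1 probe gave 0.70 (a bound), while the targets HEYL, HES1 and HES4 stood at 0.83, 0.65 and 0.62. Outside the lists, platelet-derived growth factor B (PDGFB) and its receptor PDGFRB were 3.69-fold and 2.66-fold higher, the KIT ligand KITLG at least 3.3-fold and the growth factor FGF19 2.04-fold higher. Other probes of PDGFB gave bounds of 0.37 and 1.56. For PDGFB and PDGFRB, P1 and P2 were nearer to P4 than to P3.

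Most mitosis genes were slightly lower in P4. Of 38 mitosis and spindle genes 34 were below 0, against 5961 of all 11781 detected genes. None was 2-fold different, and the median was -0.16. The mitotic cyclins CCNB1 and CCNB2 stood at -0.54 and -0.33, the kinase CDK1 at -0.32, the kinesin KIF2C at -0.49 and the spindle assembly factor TPX2 at -0.01. Replication genes had a median of -0.07, 23 of 34 below 0, with thymidine kinase TK1 at -0.33 and the helicase subunit MCM2 at -0.25. MYC family and G1 genes had a median of 0.07, with MYCN at 0.32 and cyclin gene CCND2 at 0.28. Among cyclin-dependent kinase inhibitors, CDKN1A was higher as above, CDKN2D was 2.37-fold lower, reading 91.7 in P3 and 38.8 in P4, and CDKN1B and CDKN1C stood at 0.04 and -0.07.

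Replication-dependent histone genes are expressed in S phase and lack a poly(A) tail in their usual form. They had the lowest median of the 64 lists with a median, which were chosen with earlier results known. Of 23 detected genes 19 were below 0, against 5961 of all 11781 detected genes, with a median of -0.64. At least 2-fold lower were 7, against 0.755% of all detected genes, and 0 were higher. Among histone genes detected on both arrays 6 of 18 were at least 2-fold lower. That number was 1 of 12 with the floor at the 75th percentile and 1 of 23 with 50 added instead of flooring. H2BC12 read 764 (P1), 567 (P2), 1978 (P3) and 625 (P4), 3.16-fold lower, and its other probe gave -1.85. H2AC18 was 2.52-fold lower (another probe gave -0.65), H2AC19 2.23-fold, H2BC9 2.22-fold, H2BC5 2.08-fold, H2AC20 2.05-fold and H4C5 at least 2.15-fold lower. H4C3 was bright on all arrays, with 18416 in P3 and 11854 in P4, a difference of -0.64. P3 was the highest array for H2BC12, whereas H2BC9 read 243 (P1), 276 (P2), 253 (P3) and 114 (P4) and so was low in P4 alone. Signal shared between copies of this family was not tested.

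Among small RNAs, spliceosomal and Cajal body RNAs were mostly lower. Of 23 detected Cajal body and spliceosomal RNA genes 21 were below 0, against 5961 of all 11781 detected genes, with a median of -0.36. At least 2-fold lower were 2, against 0.755% of all detected genes. They were SCARNA9 and RNU11, an RNA of the minor spliceosome, at 2.16-fold and 2.15-fold lower. RNU4ATAC stood at -0.77, SCARNA13 at -0.61 and RNU6-1 at 0.04. The 53 detected H/ACA box small nucleolar RNAs had a median of -0.14 with SNORA12 lowest at -0.93, and the 54 C/D box ones a median of -0.02, with SNORD69 at 0.65 and SNORD49A at -0.66. No small nucleolar RNA gene was 2-fold different. What these probes read, the mature RNA or its precursor, was not tested. By RefSeq gene type, 4 of 181 detected long non-coding RNA genes (2.21%) passed 2-fold upward and 0 downward. The shares of all detected genes were 1.34% and 0.755%, so counts this small do not set the type apart. Of 34 microRNA genes 0 were 2-fold different in either direction.

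Chromatin genes were near equality. DNA methyltransferases, TET enzymes and readers had a median of 0.01 over 10 members, with DNMT1 at 0.06, TET1 at 0.14 and UHRF1, which guides maintenance methylation, at -0.29. Polycomb and Trithorax genes had a median of -0.07, with CBX7 at 0.78 and BMI1 at 0.66. Imprinted genes, in contrast, spread widely around a median of 0.08. NDN and PEG3 were higher as above, and NNAT, which encodes neuronatin, read 2136 (P1), 52.3 (P2), 3869 (P3) and 1578 (P4), 2.45-fold lower, and its other probe gave -2.20; DLK1 and ZDBF2 stood at 0.90 and 0.84 or more, and CDKN1C, an imprinted gene too, near 0. From the list of genes whose silencing varies between pluripotent lines, 4 were detected here with a median of 0.54, PEG3, SPART (0.56), TCERG1L (0.51) and DPP6 (-0.08).

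Of the large gene families, zinc finger genes named ZNF, many of which repress retroelements, had 345 detected members, 7 at least 2-fold higher (2.03%) and 3 lower (0.87%), shares near those of all genes. After ZNF667, ZNF439 was at least 3.81-fold higher, ZNF454 at least 3.09-fold higher, ZNF558 2.9-fold higher and ZNF560 2.88-fold higher, and ZNF311 was at least 2.46-fold lower. Clustered protocadherins are cell recognition proteins of neurons whose promoters are chosen individually. At least 2-fold higher were 4 of 19 detected members, against 1.34% of all detected genes, and 0 were lower, with a median of 0.32. Of these 4, 3 entered through their P4 level alone, and among members detected on both arrays 1 of 10 was at least 2-fold higher. They were PCDHB18P (at least 4.62-fold), PCDHA2 (at least 3.55-fold), PCDHB3 (2.95-fold) and PCDHA3 (at least 2.32-fold, with other probes at 0.34 and 1.26, both bounds), all dim, with P4 levels between 89 and 178, and PCDHA1 stood at -0.90. Solute carriers had a median of 0.02 over 200 members. After SLC39A4, SLC12A4, a potassium chloride cotransporter, was 2.33-fold higher, SLC8A3 at least 2.3-fold higher (another probe gave a bound of -0.55, the opposite direction), SLC7A5, a transporter of large neutral amino acids, 2.11-fold higher and SLC4A8 2.51-fold lower. Medians were -0.10 for kinesins, -0.04 for keratins, 0.01 for HOX genes and 0.25 for drug transporters, where ABCC4 stood highest at 0.54.

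Metabolic classes held no 2-fold member apart from PYCR1. Glycolysis genes had a median of -0.04, with hexokinase HK2 at -0.53 and the glucose transporter SLC2A1 at 0.39. Hypoxia-induced genes had -0.11, with the peptide hormone ADM at 0.87 and the histone demethylase KDM3A at -0.61. Oxidative phosphorylation genes had -0.08, with 53 of 73 below 0, against 5961 of all 11781 detected genes. Cholesterol synthesis genes had 0.06, with CYP51A1 at 0.50, and fatty acid synthesis genes 0.12, with ACSL1 at 0.52 and FASN at -0.40. TXNIP, an inhibitor of thioredoxin and of glucose uptake, read 209 (P1), 105 (P2), 1133 (P3) and 591 (P4), a difference of -0.94.

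Genes of the expression machinery lay close to 0. Medians were -0.02 over 71 ribosomal protein genes, -0.03 over 76 mitochondrial ones, 0.01 over 50 initiation factors, -0.06 over 34 proteasome subunits and 0.07 over 16 aminoacyl-tRNA synthetases. RPS27L was the 1 member at least 2-fold different, and MRPS35 stood at 0.94. The 13 housekeeping reference genes had a median of -0.04, with 11 below 0, against 5961 of all 11781 detected genes. The lowest was cyclophilin A (PPIA) at -0.54.

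In matrix and cytoskeleton classes, single genes stood out rather than whole lists. Fibroblast and matrix genes had a median of 0.09. ACTA2, smooth muscle actin and itself reported as a p53 target, read 455 (P1), 125 (P2), 75.6 (P3) and 256 (P4), 3.38-fold higher, while the collagen gene COL5A2 stood at -0.76 and the galectin LGALS1 at -0.52. Collagens had a median of -0.04, with COL6A3 2.01-fold lower. Laminins, integrins and basement membrane genes had a median of 0.15 and epithelial and mesenchymal adhesion genes 0.04, with the integrin ITGA5 at 0.41 and the claudin CLDN6 at 0.45. In the actin list, with a median of -0.01, LCP1 and ACTA2 lay at the ends, ACTA1 stood at 0.99 and TAGLN at 0.69. The caveolin neighbours CAV1 and CAV2, which form membrane caveolae, were both higher, CAV1 by 2.23-fold and CAV2 by at least 2.82-fold (other probes gave bounds of 1.08 and 0.41).

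Chromosome regions known for gains in cultured pluripotent cells differed little in this step. The 15 detected genes of 20q11.21 had a median of 0.20, with ID1 at 0.90, KIF3B at 0.40 and CCM2L at -0.56, and no 2-fold member; the 26 genes of 12p had a median of 0.04. Medians of the 23 chromosomes lay between -0.04 on chromosome 13 and 0.03 on chromosome 18. Neighbouring detected genes at least 2-fold different in the same direction formed 14 runs of higher and 3 runs of lower genes. The longest held MT1F, MT1G, MT1H and MT1X, next to a run of MT2A and MT1E, on chromosome 16, and the next IFIT2, IFIT3 and IFIT1 on chromosome 10. Other runs paired ZNF667 with ZNF667-AS1, SERTAD4 with its antisense transcript, PCDHA2 with PCDHA3, CAV2 with CAV1 and, on the lower side, CRYAB with HSPB2 and H2BC5 with H4C5.

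The 2-fold rule used P3 and P4 alone, but P1 and P2 entered the choice of probe, the one brightest on average over all arrays. Genes were picked by the gap between P3 and P4, so the counts that follow are not independent of that choice. Of the 158 genes at least 2-fold higher in P4, 40 (25.3%) had both earlier levels nearer to P4, as NDN and CDKN1A did, and 63 (39.9%) had both nearer to P3, as the IFIT genes did. A further 45 had P1 nearer to P4 and P2 nearer to P3, among them MT1G and MT1E, and 10 the reverse. Of the 89 genes at least 2-fold lower, 46 (51.7%) had both earlier levels nearer to P4, as LCP1 and STMN2 did, and 18 (20.2%) had both nearer to P3, as CUZD1 did. Nearness was taken on the log2 scale from the midpoint of P3 and P4, with values under the limit set to it. The P1 and P2 arrays were each a lone array, so a shift of one of them enters all genes of this count.

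**Figure D4:**
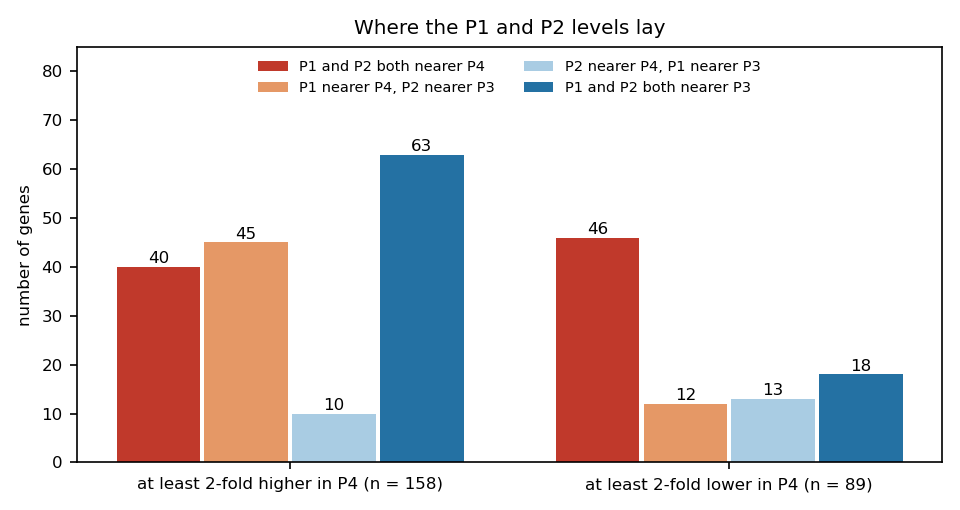
Bars give the number of genes at least 2-fold higher (left) or lower (right) in P4 than in P3, by whether the P1 and P2 log2 levels lay nearer to P4 or to P3. Among the higher genes the tallest bar, 63, is P1 and P2 both nearer to P3, and among the lower genes the tallest, 46, is both nearer to P4.

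A repeat of the measurement exists only where a gene had another detected probe. Of the 34 such genes among the higher ones, the other probes all had the direction of the chosen probe for 31. For 28 of the 34, at least 1 other probe passed 1.5-fold in that direction, though not always every one. Of the 24 among the lower ones the direction was shared by all other probes for 21, and for 13 of the 24 at least 1 passed 1.5-fold. The strongest differences were mostly without this repeat, since MT1G, NDN, MT2A, MT1F, MGMT, IFIT2 and LCP1 had a lone probe. The promoters of the lower genes were poorer in CpG, with a median of 7.5 CpG sites in 250 bases over 62 genes, against 18 over 110 higher genes and 21 over all detected genes with an entry.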

How the data were processed

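Total RNA of 4 passage groups of H9 was extracted with Trizol, cleaned on columns and labelled with biotin for Illumina arrays, per the labels' protocols. The authors deposited linear intensity values of which 25.2% to 25.4% were below 0 on each array; the background correction, normalization and software are not given in the sources used here. Depth has no counterpart on arrays.

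Deposited values were used without further normalization. Each array was floored at its 60th percentile, log2 was taken, and each gene took the probe brightest on average (Python 3.11.15, pandas 2.3.3, numpy 2.4.6). Probes were named through the platform annotation: 30113 had 1 symbol, 8 several and 17202 were not listed; 30074 were updated through RefSeq. Y-linked genes and those of the X-inactivation centre were left out. Promoters were matched by symbol for 9435 of 11781 detected genes.

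The members and the 65 lists were chosen with earlier results of these data known. Genes to be named were the 15 highest and 15 lowest genes measured on both arrays, the 10 highest and 10 lowest bounds, up to 5 members of a list (all in lists of up to 12) and a fixed set of 16. Not all of these are printed, and other genes named were chosen after their values were seen. Simulated data with known differences served to check the calculation. Alternatives were another normalization, floor, detection filter and probe rule.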

Additional observations from a re-analysis of the deposited data

How the results depend on the processing

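With 1 array per group, no array could be left out, and no paired analysis was possible because each group has 1 replicate. Counts depended mostly on the floor. Genes at least 2-fold higher and lower in P4 numbered 271 and 204 with floor and limit at the 50th percentile, 52 and 25 at the 75th percentile, 110 and 36 when 50 was added to each value instead of flooring, and 105 and 71 among genes detected on both arrays. The share of higher among all 2-fold genes was 64% with the settings reported, 67.5% at the 75th percentile and, with the added offset, 75.3%. Quantile normalization gave 158 and 90, scaling each array to its detected median 155 and 90, and the mean of all detected probes 151 and 78. Among the higher genes, those with P1 and P2 both nearer to P4 were 72 at the 50th and 15 at the 75th percentile, and those with both nearer to P3 were 17 at the 75th percentile, 37 with the offset and 41 for genes detected on both arrays. Among the lower genes the corresponding numbers nearer to P4 were 98, 20 and, with the offset, 26, and nearer to P3 they were 42, 2 and 6. Genes whose other probes pointed the same way were 51 and 8 (higher) and 35 and 4 (lower) at the 50th and 75th percentiles, and 11 (lower) with the offset.

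The metallothionein median was 4.58 at the 50th and 3.72 at the 75th percentile, 4.57 with the offset, 4.58 for genes detected on both arrays, 3.29 with no detection filter and 3.84 with the mean of probes. The p53 target median was 0.69 at the 75th percentile, with 8 of 22 members at least 2-fold higher. At the 50th percentile the medians were 0.40 for naive pluripotency genes, 0.13 for endoderm markers, where the sign changed, and -0.0651 for genes whose silencing varies between lines, where it changed too; at the 75th percentile trophoblast and amnion markers had 0.20, again with a changed sign. With no detection filter the medians of endoderm markers, YAP targets, histone genes, clustered protocadherins and genes of variable silencing were -0.0014 and that of Cajal body RNAs -0.011, because undetected members then enter at the floor. Interferon-stimulated genes at least 2-fold higher were 4 of 18 at the 75th percentile and 4 of 19 for genes detected on both arrays. Histone genes at least 2-fold lower were 1 of 12 at the 75th percentile and 1 of 23 with the offset. Core pluripotency genes at least 2-fold higher were 0 of 27 at the 75th percentile. Clustered protocadherins at least 2-fold higher were 6 of 27 at the 50th percentile, with 1 lower, and 0 of 5 at the 75th. For named genes, 2816 of 2892 recomputed differences kept their side of the 2-fold line, 57 fell under it, 19 passed it and 0 reversed. Of the 2816, 383 with no detection filter and 321 for genes detected on both arrays could not change, since these settings alter only the filter. A reversal was counted only for genes at least 2-fold different, and many named genes lay well under that line. Dim genes are limited by the floor, and a fold from a lone array is limited by the number of arrays.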

Other observations

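Probes that the platform annotation does not list were left unnamed. Of 4359 such probes detected in P3 or P4, 30 were higher and 29 were lower in P4 by 2-fold or more.

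Several genes outside the lists and not described above passed 2-fold upward in P4. TXNRD2, the mitochondrial thioredoxin reductase, read 253 (P1), 159 (P2), 47.1 (P3) and 154 (P4), 3.27-fold higher. VSNL1, a neuronal calcium sensor, read 1805 (P1), 1125 (P2), 623 (P3) and 1732 (P4), 2.78-fold higher. TOMM5, a subunit of the mitochondrial import pore, read 5733 (P1), 3958 (P2), 1896 (P3) and 4430.2 (P4), 2.34-fold higher. SUCLG2, a subunit of the citric acid cycle enzyme succinyl-CoA ligase, read 1458 (P1), 1250.3 (P2), 497 (P3) and 1115 (P4), 2.24-fold higher, and IDO1, which degrades tryptophan, read 1338 (P1), 1598 (P2), 547 (P3) and 1155 (P4), 2.11-fold higher. In all 5 the P3 array was the lowest of the 4. EDNRB, an endothelin receptor, read 1064 (P1), 727 (P2), 1275 (P3) and 2875 (P4), 2.25-fold higher, with P4 as the highest array.

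On the lower side, IGFBP5, an insulin-like growth factor-binding protein, read 193 (P1), 110.3 (P2), 363 (P3) and 148 (P4), 2.45-fold lower, PRKCH, a protein kinase C, read 306 (P1), 212 (P2), 606 (P3) and 234 (P4), 2.59-fold lower, and the chemokine gene CXCL5 read 805 (P1), 315 (P2), 1392 (P3) and 663 (P4), 2.1-fold lower. P3 was the highest array for each of them. EBLN2, a gene derived from an ancient bornavirus, read 879 (P1), 915 (P2), 768 (P3) and 294 (P4), 2.61-fold lower, with P4 as the low array.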
